A study of Mus musculus with 6 samples.

Results

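The H3K27ac signal at the promoters of mouse splicing factor genes was followed through a rapid loss of the transcription factor OCT4. The members were the protein_coding genes of GENCODE release vM21 named Srsf, Snrp, Sf3a, Sf3b, Hnrnp, Prpf or U2af, and every H3K27ac peak with a transcript start of such a gene within 1 kb. Of 68 such genes, 64 had a peak, and together they held 84 of the 31131 peaks. The genes with no peak were Prpf39, Sf3b5, Snrpf and Srsf12. The rule used gene names and the positions of the authors' peaks, which were called on pooled uninduced reads, so a member needed signal in the uninduced state. All 84 peaks were among the 26457 tested because each reached 0.5 RPKM in the uninduced or the IAA mean.

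The libraries came from O4AID ESCs, embryonic stem cells of strain 129SV that lack endogenous Oct4 (Oct4-/-) and carry the transgenes CAG Oct4AID and CAG Tir1 beside TetOFF Oct4. All 6 libraries share this genotype and the culture in N2B27 with PD03, Chiron and LIF, under doxycycline, which keeps the TetOFF Oct4 transgene silent. OCT4 therefore came only from a transgene on the constitutive CAG promoter, fused to an auxin-inducible degron (AID) that Tir1 marks for destruction once the auxin IAA is added. The uninduced group is 3 IPs from cells without IAA and the IAA group is 3 IPs from cells after 1.5 h in 500 µM IAA. IAA-treated cells without degradable OCT4 are not analysed here. The p-values below measure the spread between these IPs, since nothing in the labels says that they came from separate cultures.

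Splicing removes introns from pre-mRNA and is carried out by the spliceosome, which is built from small nuclear ribonucleoproteins (snRNPs) and many further proteins. Sm proteins form the ring around the snRNAs, U2AF and the SF3A and SF3B complexes mark the 3′ end of the intron and the branch point, PRPF proteins belong largely to the later tri-snRNP and catalytic complexes, and SR proteins and hnRNPs bind the transcript and steer the choice of splice site. These genes are active in nearly all cells, stem cells included, and acetylation of histone H3 at lysine 27 marks active promoters and enhancers.

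The 6 libraries held 31634480 to 39547452 reads, and a member peak had a median of 166 to 216 reads in the uninduced libraries and 120.5 to 145.5 in the IAA libraries. Reads in peaks made up 6.63 to 7.12% of the uninduced libraries and 4.05 to 5.15% of the IAA libraries. RPKM (reads in a peak scaled by the length of the peak and the total reads of the library) divides by all reads, so a lower share of reads in peaks lowers every peak together; whether the share fell through acetylation or through the efficiency of the IPs cannot be told apart, as no spike-in was used here. As a check of the cell type, 11 of 12 naive pluripotency genes, 1 of 6 trophoblast genes, 2 of 4 neural genes and 0 of 4 fibroblast genes had a peak at a start.

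The promoter windows below, from RefSeq on GRCm38.p6, show 3 genes on which the description turns. Each runs from 250 bases before to 50 bases after the RefSeq start, 5′ to 3′ along the gene, and capitals mark GGGCGG (the SP/KLF box) and CCAAT (the NF-Y box) on either strand. Srsf9 (chr5:115326927-115327226, plus strand) held the member peak with the largest fall, Hnrnpl (chr7:28810640-28810939, plus strand) the smallest, and Hnrnpa0 (chr13:58128507-58128806, minus strand) the highest mean uninduced level.
Srsf9: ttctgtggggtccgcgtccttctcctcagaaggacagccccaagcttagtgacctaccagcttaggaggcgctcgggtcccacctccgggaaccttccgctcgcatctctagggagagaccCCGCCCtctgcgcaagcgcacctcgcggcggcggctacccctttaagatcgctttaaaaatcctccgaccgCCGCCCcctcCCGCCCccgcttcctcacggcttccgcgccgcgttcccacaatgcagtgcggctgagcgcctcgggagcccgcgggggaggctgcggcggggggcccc
Hnrnpl: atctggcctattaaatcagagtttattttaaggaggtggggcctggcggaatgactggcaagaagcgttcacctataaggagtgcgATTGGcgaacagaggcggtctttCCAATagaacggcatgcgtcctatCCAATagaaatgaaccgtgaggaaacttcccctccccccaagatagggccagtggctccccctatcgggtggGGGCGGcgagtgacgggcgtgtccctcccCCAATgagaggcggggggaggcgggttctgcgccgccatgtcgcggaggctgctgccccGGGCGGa
Hnrnpa0: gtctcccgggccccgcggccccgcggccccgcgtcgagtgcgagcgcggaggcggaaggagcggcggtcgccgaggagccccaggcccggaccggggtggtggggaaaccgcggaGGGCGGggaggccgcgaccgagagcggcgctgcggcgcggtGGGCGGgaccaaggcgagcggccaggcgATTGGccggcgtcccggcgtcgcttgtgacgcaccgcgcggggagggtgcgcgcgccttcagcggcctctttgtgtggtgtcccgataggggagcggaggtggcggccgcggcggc
The Srsf9 window held 3 GGGCGG boxes and no CCAAT, the Hnrnpl window 4 CCAAT and 2 GGGCGG boxes, and the Hnrnpa0 window 2 GGGCGG boxes and 1 CCAAT. GC made up 69.0% of the Srsf9 window, 60.0% of the Hnrnpl window and 79.7% of the Hnrnpa0 window.

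H3K27ac was lower after IAA at splicing factor promoters of all 6 families, and the size of the fall was close to that of peaks in general. All 84 member peaks had a lower mean after IAA, and the test across all peaks (limma, log2(RPKM + 0.1), Benjamini-Hochberg adjusted p under 0.05) called 71 lower, 0 higher and left 13 uncalled. That is 84.5% of the member peaks, where 68.2% of all 26457 tested peaks were called lower and 0.0605% higher. At an unadjusted limma p under 0.05, 0 member peaks were higher, and only 24 of all tested peaks were. Among the 11739 peaks at starts of other protein-coding genes 71.1% were called lower. Among the 4187 of these with an uninduced level at or above the members' lower quartile (3.44 RPKM) 89.8% were. Members below that quartile have no counterpart among the 4187, so these shares are not matched for level. The median log2 change was -0.49 at member peaks (quartiles -0.60 and -0.41, range -1.03 to -0.19), -0.53 at the other protein-coding promoters and -0.55 at all tested peaks.

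The count of called peaks rested on single libraries, while the median change stayed below 0 without any 1 of them; of the peaks named here only the Hnrnpl peak with the smallest change turned above 0, to 0.053 without IAA replicate 2. Without uninduced replicate 1 the test called 26 member peaks lower (31.0%, against 39.2% of all peaks), without uninduced replicate 2 it called 37 (44.0%, against 46.5%), and without IAA replicate 1 it called 80 (95.2%, against 74.1%). In every fit, with all libraries or without any 1 of them, 21 member peaks were called lower. The share of all tested peaks called lower in every fit was not counted. Among the 21 were the peaks of Srsf9 (downstream), Srsf2 (downstream), Snrpa (internal start), Snrpb, Sf3a3, Hnrnpu (upstream), Prpf8 and Prpf19 described below. For these the largest limma adjusted p ran from 0.011 to 0.040. The other member calls were lost without at least 1 library. The highest IAA value was lower than the lowest uninduced value at 72 of the 84 member peaks (85.7%), against 71.2% of all tested peaks. The share was 88.1% among the 4187 other protein-coding promoter peaks at or above the members' lower quartile of uninduced level. At 10 of the 12 peaks with overlapping groups the highest IAA value was that of replicate 1, the IAA library with the largest share of reads in peaks, and at 10 the lowest uninduced value was that of replicate 3, the uninduced library with the smallest. These libraries held the same places at most member peaks, IAA replicate 1 being the highest IAA library at 67 of the 84 and uninduced replicate 3 the lowest uninduced library at 57.

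When each library was centred on its own median peak, which removes any change common to all peaks, no fall was left to call at the splicing genes. The median centred change was 0.06, with 31 member peaks below 0 and 53 above, and 0 were called by limma (smallest adjusted p = 0.11). Across all tested peaks 1.97% were called lower and 0.544% higher. An unadjusted limma p under 0.05 was found at 3 of the 84 member peaks, a smaller share than in either wider set. It was found at 3767 of the 26457 tested peaks and at 1057 of the 11739 other protein-coding promoter peaks. Within the libraries, the median member peak stood 0.97 ± 0.0609 log2 units above the median of all tested peaks in the uninduced state and 0.97 ± 0.103 after IAA (SD, n = 3). Of 19 peaks at genes for naive pluripotency 18 were called lower, with a median change of -1.04, and 11 were called after centring, in either direction.

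**Figure D1:**
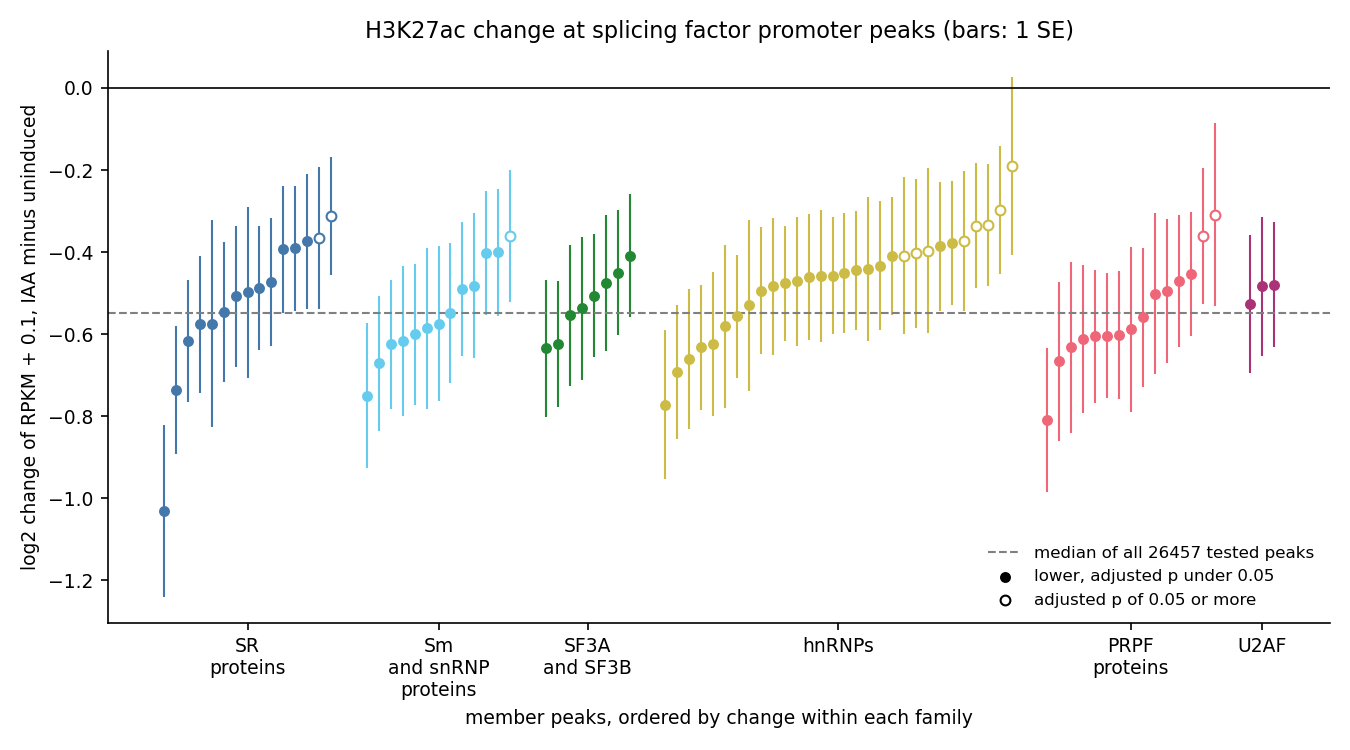
Log2 change of RPKM + 0.1 (IAA minus uninduced, 3 libraries each) at each of the 84 member peaks, grouped by family and ordered by size, with bars of 1 standard error; filled points have an adjusted p under 0.05 and open points do not. All points lie below 0, from -1.03 at Srsf9 to -0.19 at Hnrnpl, and they lie on both sides of the dashed line at -0.55, the median of all tested peaks.

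The SR proteins, which bind exonic enhancers through RNA recognition motifs and recruit the spliceosome with their arginine-serine tails, had 15 peaks at 10 genes, of which 13 fell and 2 were not called, with a median change of -0.50. The largest fall of any member was at the peak downstream of the Srsf9 start (chr5:115327753-115328060, in an intron), where the uninduced libraries held 2.31, 1.96 and 1.93 RPKM and the IAA libraries 0.859, 0.903 and 1.13. The groups stood well apart, and the change was -1.03 ± 0.21 (log2, limma adjusted p = 0.0011; after a log2 change ± is the SE of the fit, and after a level in RPKM it is the SD of 3 libraries), yet each value rested on only 9 to 28 reads. The peak upstream of the same start fell by 0.57 on the log2 scale (adjusted p = 0.049), and there the groups overlapped, since IAA replicate 1 at 2.27 RPKM exceeded uninduced replicates 1 and 3.

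Srsf1, the founding SR protein and a regulator of alternative splicing, had the highest SR promoter (chr11:88047191-88048572, over the first exons). Its uninduced values were 10.05, 10.03 and 8.02 RPKM and its IAA values 8.07, 6.42 and 5.77. IAA replicate 1 thus sat just above uninduced replicate 3, and the change was -0.47 ± 0.16 (adjusted p = 0.015). Srsf3, the smallest SR protein, went from 7.17 ± 0.712 to 5.09 ± 0.624 RPKM (SD, n = 3), a log2 change of -0.49 (adjusted p = 0.012) with no overlap of the groups.

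At Srsf2 (SC35), the classical marker of nuclear speckles, the signal was split into a peak over the 5′ end and a smaller one further into the gene. The downstream peak (chr11:116851863-116852403) held 6.37, 6.56 and 4.97 RPKM uninduced and 3.69, 3.44 and 3.42 after IAA, and fell by 0.74 on the log2 scale (SE 0.16, adjusted p = 0.0015). The peak over the annotated 5′ end held 7.85, 7.93 and 6.23 RPKM and then 6.12, 5.30 and 5.24, and fell by 0.39 (adjusted p = 0.031). Both Srsf2 peaks also lie within 1 kb of starts of Mfsd11, so the signal belongs to both genes.

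The SR peaks that passed no threshold were at Srsf5 and Srsf10. Srsf5, an SR protein that shuttles between nucleus and cytoplasm, held 8.67, 8.52 and 8.27 RPKM uninduced and 7.65, 6.90 and 5.99 after IAA, without overlap, and its change was -0.31 ± 0.14 (adjusted p = 0.058). At Srsf10, a regulator that represses splicing when dephosphorylated, the intronic peak changed by -0.36 (adjusted p = 0.066) while the peak over the 5′ end fell by 0.62 (adjusted p = 0.0033). The authors marked peaks within 1 kb of an OCT4 site in published data from another ESC line, since OCT4 itself was not measured in these libraries, and Srsf11 carried the only such OCT4 mark in the family, on the peak at an internal start. That peak fell from 5.09 ± 0.531 to 3.85 ± 0.388 RPKM, a change of -0.39 (adjusted p = 0.033).

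The Sm and other snRNP proteins had 13 peaks at 11 genes, of which 12 fell and 1 was not called, with a median change of -0.57. Snrpb, the gene for the Sm ring protein B, had the highest level (chr2:130178336-130179520), with 7.84, 8.65 and 7.09 RPKM uninduced and 6.12, 4.68 and 4.48 after IAA. Every IAA value lay below every uninduced value, and the change was -0.62 ± 0.16 (adjusted p = 0.0041). The largest fall was at an internal start of Snrpa, which encodes a protein bound to the snRNA of the U1 snRNP, where a peak over coding sequence held 3.32, 2.73 and 3.43 RPKM and then 2.09, 1.80 and 1.63 (log2 change -0.75 ± 0.18, adjusted p = 0.0028). The main Snrpa promoter, more strongly acetylated at 5.80 ± 0.254 RPKM, fell by 0.40 (adjusted p = 0.027).

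Snrpd1 and Snrpd3 encode further Sm ring proteins. Snrpd1 went from 3.05 ± 0.414 to 1.96 ± 0.379 RPKM, a change of -0.62 (adjusted p = 0.0096). At Snrpd3 the peak upstream of the start fell by 0.60 (adjusted p = 0.0077), while the peak downstream held 5.22, 5.49 and 4.36 RPKM and then 4.23, 4.16 and 3.29, a change of -0.36 (adjusted p = 0.052) that did not pass the threshold although the groups did not overlap. Snrpn, the imprinted SmN gene expressed chiefly in brain, had 1 of the lowest member promoters, at 2.06, 2.27 and 1.90 RPKM and then 1.45, 1.44 and 1.17, and fell by 0.59 (adjusted p = 0.016). That peak is shared with Snurf, the upstream reading frame of the same transcription unit, and lies far inside the long annotated Snrpn gene.

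The subunits of SF3A and SF3B, which hold the U2 snRNP on the branch point, had 8 peaks at 8 genes, and all 8 fell, with a median change of -0.52. Sf3a2 was the highest (chr10:80797605-80799496), with 9.07, 9.80 and 8.04 RPKM uninduced and 7.77, 6.67 and 5.83 after IAA, and it had the smallest fall of the family, -0.41 ± 0.15 (adjusted p = 0.024). Sf3a3 had the largest, from 4.02, 3.68 and 3.21 RPKM to 2.35, 2.58 and 2.01, a change of -0.63 ± 0.17 (adjusted p = 0.0053). No IAA value of either gene reached an uninduced value.

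Sf3b1, the branch-point subunit that is recurrently mutated in blood cancers, went from 6.54 ± 0.365 to 4.79 ± 0.682 RPKM, a change of -0.45 (adjusted p = 0.017). Sf3a1 went from 3.91 ± 0.305 to 2.70 ± 0.579 RPKM, a change of -0.54 (adjusted p = 0.014). The changes of this family had the narrowest range but for U2AF, from -0.63 to -0.41, with a median standard error of 0.16 for a single peak. Both families also had the fewest peaks, 8 here and 3 for U2AF, and ranges were not compared at equal numbers of peaks.

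The hnRNPs, abundant binders of nascent transcripts that often repress exons, formed the largest family with 30 peaks at 20 genes, of which 22 fell and 8 were not called, and they had the smallest median change, -0.45. The highest mean level of all members, 9.99 ± 1.96 RPKM and thus not told apart from the 9.98 ± 0.566 RPKM of an Hnrnpu peak, was at the Hnrnpa0 peak downstream of the start printed above (chr13:58127802-58128354), with 10.8, 11.5 and 7.77 RPKM uninduced and 8.66, 7.23 and 4.50 after IAA. The replicates of this AU-rich element binding protein differed widely, IAA replicate 1 exceeded uninduced replicate 3, and the change was -0.58 ± 0.20 (adjusted p = 0.018). The Hnrnpa0 peak upstream of the start fell by 0.49 (adjusted p = 0.012) without overlap.

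Hnrnpa2b1 and Hnrnpa1 encode the A/B core proteins of hnRNP particles, both known for repressing exons. Hnrnpa2b1 held 10.07, 10.08 and 9.40 RPKM uninduced and 8.66, 6.99 and 6.66 after IAA, a change of -0.41 ± 0.14 (adjusted p = 0.020). Hnrnpa1 held 7.29, 6.53 and 6.66 RPKM and then 5.86, 5.22 and 3.94, a change of -0.46 ± 0.16 (adjusted p = 0.020). At both genes every IAA value was below every uninduced value.

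Hnrnpu encodes SAF-A, a chromatin-associated RNA-binding protein, and both of its peaks carried the authors' OCT4 mark. The small upstream peak (chr1:178338375-178338739), outside the gene, had the largest fall among the hnRNPs, from 5.77, 3.82 and 3.62 RPKM to 2.66, 2.59 and 2.22, a change of -0.77 ± 0.18 (adjusted p = 0.0029). Uninduced replicate 1 stood above the other two there. The peak over the 5′ end, among the highest of all members at 9.73, 10.6 and 9.59 RPKM, went to 8.35, 6.81 and 6.66, a change of -0.46 ± 0.14 (adjusted p = 0.012).

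The smallest change among all members was at Hnrnpl, whose protein binds CA repeats, at the peak that holds the start printed above (chr7:28810820-28811545). Its uninduced values were 5.27, 4.84 and 4.60 RPKM and its IAA values 3.68, 3.02 and 7.00, so IAA replicates 1 and 2 lay below all uninduced values and IAA replicate 3 above all of them. The change was -0.19 ± 0.22 (adjusted p = 0.42), and the neighbouring Hnrnpl peak upstream fell by 0.46 (adjusted p = 0.016) with 3.40 RPKM in that same IAA replicate 3. The high value was thus limited to 1 peak of the pair.

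Neither peak of Hnrnpk, a poly(C)-binding protein with roles in transcription and translation, was called. The peak over its 5′ end held 7.73, 7.70 and 6.72 RPKM uninduced and 6.62, 4.91 and 6.05 after IAA, a change of -0.34 ± 0.15 (adjusted p = 0.057), and the other held 6.69, 5.69 and 5.88 and then 4.83, 3.61 and 5.82, a change of -0.37 (adjusted p = 0.057). Weak promoters of the family were uncalled too: the first Hnrnpf start, a G-tract binding protein, changed by -0.40 (adjusted p = 0.081) at 1.85 ± 0.133 RPKM, and Hnrnpll, a regulator of exon skipping in lymphocytes, by -0.40 (adjusted p = 0.054) at 2.45 ± 0.227 RPKM. At Hnrnpd (AUF1), which binds AU-rich elements, the groups overlapped at all 3 peaks, and the upstream peak, with a change of -0.41 (adjusted p = 0.063), was not called.

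The PRPF proteins, named after yeast pre-mRNA processing mutants and working mainly in the tri-snRNP and the active spliceosome, had 15 peaks at 12 genes, of which 13 fell and 2 were not called, and the family had the largest median change, -0.59. Prpf19, the ubiquitin ligase at the core of the complex that carries its name, had the largest fall (chr19:10895127-10896165), from 4.70, 4.39 and 3.96 RPKM to 3.02, 2.48 and 1.92. The groups were well separated and the change was -0.81 ± 0.18 (adjusted p = 0.0017). Prpf8, the protein that cradles the catalytic RNA core, went from 4.45, 4.37 and 3.90 RPKM to 3.02, 2.62 and 2.65, a change of -0.60 ± 0.16 (adjusted p = 0.0048).

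Prpf38b, a relative of the spliceosomal protein PRPF38A, had peaks at a strong and a weak start. Its main promoter was the highest of the family, at 7.23, 6.66 and 6.10 RPKM and then 5.52, 4.56 and 4.48, and fell by 0.45 (adjusted p = 0.016). A weak peak at an internal start held 1.84, 1.54 and 2.15 RPKM and then 1.93, 1.44 and 1.10, overlapping, with the smallest change of the family, -0.31 ± 0.22 (adjusted p = 0.20). Prpf6, a bridging protein of the tri-snRNP, had its only peak at an internal start, with 3.07 ± 0.130 and then 2.38 ± 0.299 RPKM and a change of -0.36 (adjusted p = 0.058).

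The U2AF heterodimer recognises the 3′ end of introns, and all 3 U2AF peaks fell. U2af1, the small subunit that reads the terminal AG, went from 4.71, 3.80 and 3.83 RPKM to 3.20, 2.97 and 2.34, a change of -0.53 ± 0.17 (adjusted p = 0.013). U2af2, the large subunit that binds the polypyrimidine tract, went from 5.11, 4.76 and 4.83 RPKM to 3.93, 3.21 and 3.34, a change of -0.48 ± 0.15 (adjusted p = 0.013). U2af1l4, a close relative of the small subunit, had the highest level, 6.04, 5.78 and 4.72 RPKM and then 4.82, 3.81 and 3.22, and here the groups overlapped by IAA replicate 1, with a change of -0.48 ± 0.17 (adjusted p = 0.020).

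**Figure D2:**
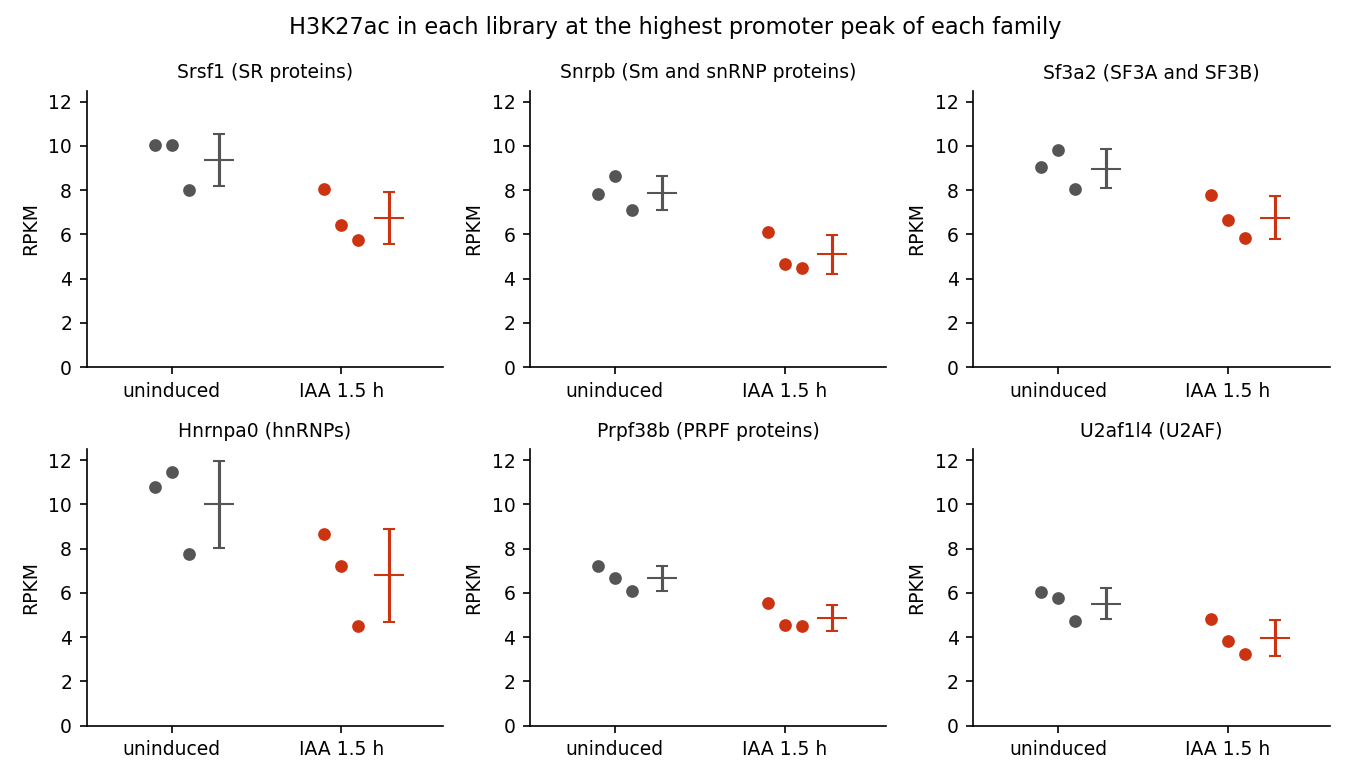
RPKM in each of the 6 libraries at the highest promoter peak of each family; points are libraries in replicate order, and the line and bar give the mean and SD of 3. The IAA mean lies below the uninduced mean in each panel, and the groups overlap at Srsf1, Hnrnpa0 and U2af1l4, where IAA replicate 1 exceeds uninduced replicate 3.

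Of the 13 uncalled member peaks, 8 belonged to the hnRNPs, and their changes ran from -0.41 to -0.19 with adjusted p from 0.052 to 0.42. At 9 of the 13 the highest IAA value was still under the lowest uninduced value. The hnRNP and PRPF medians, the farthest apart of the families, were compared within each library as a description chosen after the family medians were seen: the hnRNP median stood 0.65, 0.69 and 0.70 log2 units above the PRPF median in the uninduced libraries and 0.79, 0.76 and 1.06 above it in the IAA libraries. The IAA values were the higher ones, and the mean shift was 0.19.

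Averaged over the peaks of each gene by length, the 64 genes ran in level from 1.75 RPKM at Hnrnph2 to 9.85 RPKM at Hnrnpa2b1, with a median of 5.01. The order at the top was Hnrnpa2b1 (9.85 ± 0.391), Srsf1 (9.37 ± 1.16), Sf3a2 (8.97 ± 0.880) and Hnrnpu (8.73 ± 0.438), and at the bottom Srsf9 (2.14 ± 0.0851), Prpf40b (2.09 ± 0.0560), Snrpn (2.08 ± 0.186) and Hnrnph2 (1.75 ± 0.135). Of the 63 neighbouring pairs in this order, 59 differed by less than the larger of their SDs. Changes per gene ran from -0.83 at Prpf19 to -0.32 at Srsf5 (log2 of RPKM, median -0.50). The groups did not overlap at 60 of the 64 genes (93.8%), against 77.1% of 10179 other protein-coding genes averaged over their tested peaks. Those other genes were not matched for level. At the 60 a two-sided exact permutation test gave p = 0.1, the smallest that 3 against 3 libraries allow. The exceptions were Srsf1, Srsf6, Hnrnpd and U2af1l4 (exact permutation p = 0.2).

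The members were strongly acetylated promoters. Their median uninduced level was 4.92 RPKM, against 2.88 RPKM at other protein-coding promoters and 2.44 RPKM over all tested peaks, and 76 of the 84 lay above the median of all tested peaks. Higher member peaks had the smaller changes: the 42 with the higher mean over all 6 libraries had a median change of -0.46 and the other 42 had -0.56, with a Spearman rho of 0.40 over the 84 peaks between mean level and change. Among all 11739 other protein-coding promoter peaks the rho was -0.01, and among the 4187 with at least 3.44 RPKM uninduced it was 0.31. A cut on the uninduced level by itself tends to raise this rho, so 0.31 is not a matched parallel to the 0.40 of the members. Peaks share libraries and their level enters both measures, so these are descriptions without a test.

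**Figure D3:**
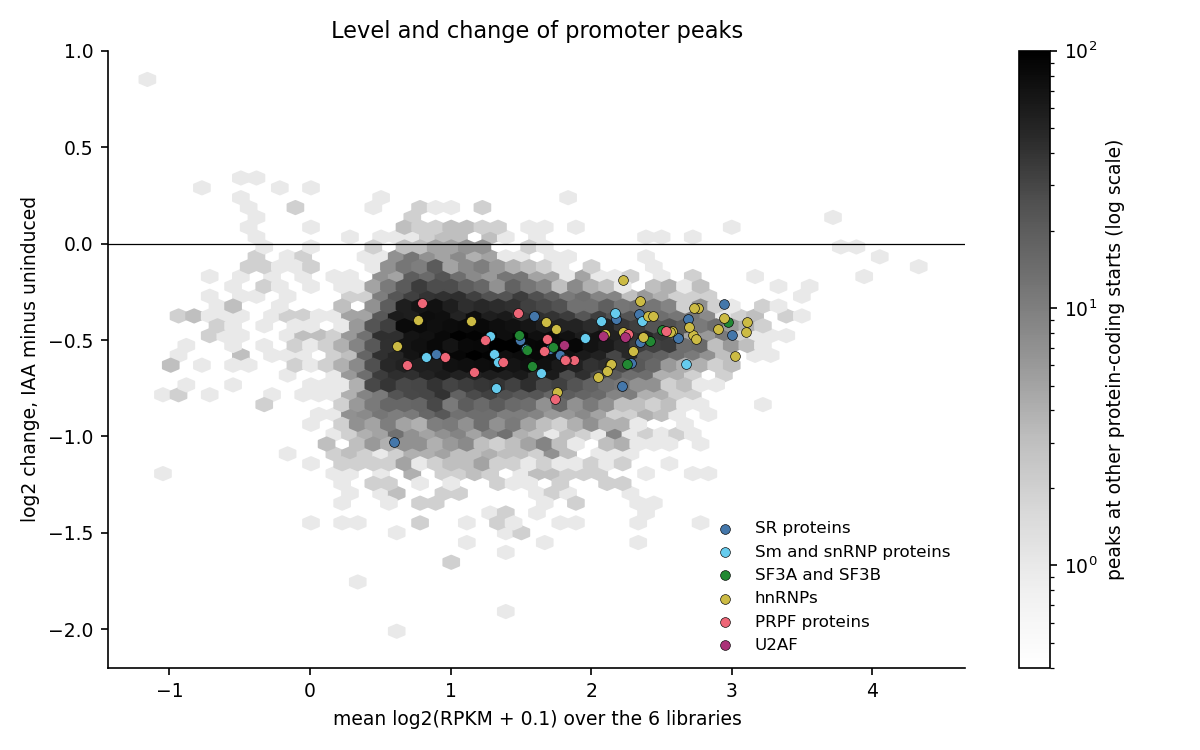
Mean log2(RPKM + 0.1) over the 6 libraries (horizontal) against the log2 change, IAA minus uninduced (vertical), for the 84 member peaks in family colours and for the 11739 peaks at other protein-coding starts as grey hexagons shaded by number on a log scale. The members lie in the right part of the grey cloud and within its vertical range.

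The member peaks were also broad and rich in CpG, and few carried the OCT4 mark. Their median length was 1235 bp, against 816 bp at other protein-coding promoters and 728 bp over all tested peaks, and their observed to expected CpG ratio had a median of 0.803, against 0.669 and 0.358. The other protein-coding promoters at or above the members' lower quartile of uninduced level were nearer, with medians of 1029 bp and 0.706. The OCT4 mark was set for 3 of 84 member peaks (3.57%), both Hnrnpu peaks and 1 Srsf11 peak, against 8.07% of other protein-coding promoter peaks and 17.6% of all tested peaks. The changes at these 3 (-0.77, -0.46 and -0.39) lay within the range of the unmarked members, from -1.03 to -0.19.

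By annotation, 52 of the 84 peaks held the annotated 5′ end of their gene, 9 lay outside the gene, 5 lay in introns only, and the rest overlapped exons. At 35 of the 64 genes a start of another gene, of any biotype, lay on the opposite strand within 1 kb, as at Srsf2 with Mfsd11. Whether such pairs run head to head was not checked. At 47 of the 84 peaks a start of some other gene lay within 1 kb, and without these 32 of 37 peaks were called lower, with a median change of -0.50. The shares of other protein-coding genes and peaks with such neighbouring starts were not counted.

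RefSeq promoter windows of 300 bases were matched for 59 of the 68 genes. GGGCGG was present in 40 of the 59 (67.8%), CCAAT in 29 (49.2%), CCGGAAG (the ETS site) in 18 (30.5%) and CACGTG (the E-box) in 9 (15.3%), counted on both strands. In the 7181 RefSeq windows whose start lay in a tested peak these shares were 61.8, 39.5, 25.1 and 11.2%, and in all 32851 windows they were 35.7, 37.4, 8.86 and 7.15%. The 59 windows were not limited to starts in a tested peak (Prpf39, with no peak, is among them), so the sets are not matched. The octamer ATGCAAAT, the classical OCT4 motif, was in 0 of the 59 windows, against 1.20% of the windows in tested peaks and 1.74% of all; TATAAA was in 6 (10.2%, against 5.93 and 13.6%). The letters are a description of these windows only.

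At 16 genes a pair of peaks lay at annotated starts, and at 13 of these the gap between them was under 1 kb, from 200 to 718 bp. At Srsf11, Snrpa and Prpf38b the gap was 3902, 5620 and 6177 bp, and the downstream peak lay at an internal start. In 7 of the 13, Srsf9, Hnrnpa0, Hnrnpk, Srsf4, Prpf40b, Hnrnpa3 and Snrpd3, an annotated start of the gene lay in the gap, so that the acetylated stretches flanked the start. The difference between the downstream and the upstream peak was then compared within each library. The change of this difference ran from -0.46 at Srsf9, where the downstream peak fell more, to 0.31 at Hnrnpu, where the upstream peak did. The upstream peak fell more at 11 of the 16 genes, at some by very little (0.0069 at Prpf4b). How often it did so at other genes with a pair of peaks was not counted, so no tendency is read from this.

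The libraries separated by condition, in either direction, at 3 of these 16 genes, where 11.2% of 2092 other protein-coding genes with a pair of tested peaks did so; no difference between these shares is claimed from so few genes. At Srsf2 the downstream peak stood 0.30 ± 0.0240 log2 units below the upstream one uninduced and 0.64 ± 0.0629 below it after IAA (SD, n = 3), the tightest contrast of the set. At Snrpa the corresponding change was -0.35, away from the internal start, and at Snrpd3 it was 0.24, away from the upstream peak (exact permutation p = 0.1 for each of the 3, the smallest possible). At Hnrnpl the change of 0.27 came with an SD of 0.785 (log2 units) among the IAA libraries, against 0.0921 uninduced, because of the value in IAA replicate 3.

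**Figure D4:**
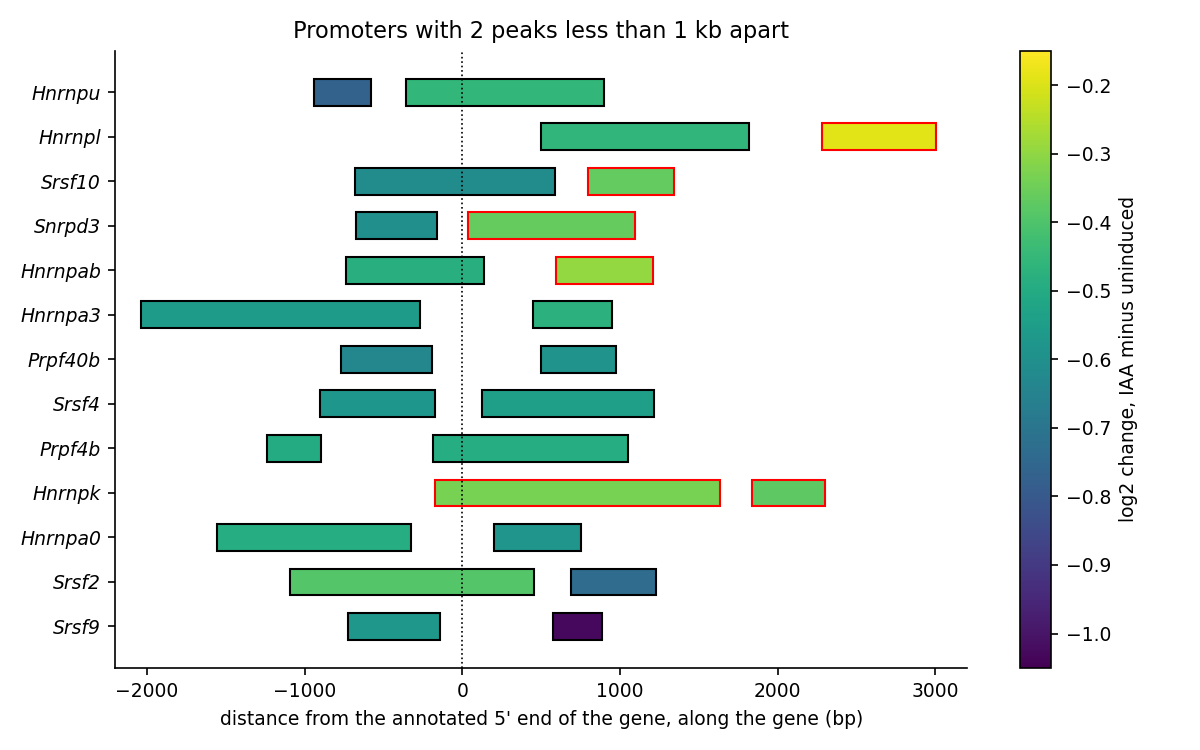
Peaks of the 13 genes with a pair of peaks less than 1 kb apart, drawn to scale as distance in bp from the annotated 5′ end along the gene and coloured by log2 change (IAA minus uninduced); black outlines mark peaks called lower and red outlines those not called. The darkest bar is the downstream peak of Srsf9 at -1.03 and the lightest the downstream peak of Hnrnpl at -0.19, and at Srsf9, Srsf4, Hnrnpa0, Hnrnpa3, Prpf40b and Snrpd3 the 5′ end lies in the gap.

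Of 79 genes of the same pathway outside the named families, 76 had a peak, and of their 97 peaks 73 were called lower (75.3%), 0 higher and 24 not, with a median change of -0.48. The share lay near the 68.2% of all tested peaks and the 71.1% of other protein-coding promoter peaks. The counts called lower were 17 of 22 peaks for other U snRNP proteins, 7 of 7 for the Lsm proteins of U6, 15 of 21 for the Prp19 complex and catalytic step factors, 5 of 8 for spliceosomal RNA helicases, and 29 of 39 for other splicing regulators and SR kinases.

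The regulators held the extremes. At Rbfox2, a regulator of tissue-specific exons, a peak with an OCT4 mark went from 5.43, 4.40 and 5.08 RPKM to 2.10, 2.53 and 1.78, a change of -1.19 ± 0.17 (adjusted p = 7.9e-05). This peak was the only 1 of the 97 still called by limma after centring (adjusted p = 0.025). Over all 26457 tested peaks 664 were, so the count of the pathway does not stand above that share. At Ptbp2, the neural polypyrimidine tract binding protein, a weak peak held 2.36, 3.06 and 1.43 RPKM and then 2.43, 1.34 and 3.69, overlapping throughout, with a change of 0.07 ± 0.28 (adjusted p = 0.81). The other Ptbp2 peaks changed by -0.71 (adjusted p = 0.015) and -0.50 (adjusted p = 0.085). Sf1, the branch-point binding protein that precedes the U2 snRNP, had a peak that held 6.92, 7.04 and 6.32 RPKM and then 6.92, 4.87 and 6.39, a change of -0.17 ± 0.16 (adjusted p = 0.32). Rbfox2, Ptbp2 and Sf1 were chosen after their values were seen.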

How the data were processed

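H3K27ac ChIP-seq libraries from 3 uninduced and 3 IAA-treated IPs of O4AID ESCs were used, grouped by the treatment in the labels. The deposited tables hold RPKM per peak and library. Per the methods, the authors aligned reads to GRCm38/mm10 with Bowtie 2 version 2.3.4.3, removed duplicates with SAMtools rmdup, pooled the uninduced reads for peak calling with MACS2, and computed the signal with DiffBind (versions of MACS2 and DiffBind not given in the sources used here). Peaks called on uninduced reads can miss regions that gained signal. The pooled columns equalled the mean of the 3 libraries. Coordinates are those of the authors' tables. Reads per peak were recovered from the RPKM steps: all values came out whole within 0.01.

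Peaks were joined to GENCODE vM21 starts within 1000 bp. Peaks with at least 0.5 RPKM in either condition mean were tested in R 4.3.3 with limma 3.58.1 on log2(RPKM + 0.1), with trend and robust options, on all 6 libraries, and adjusted by Benjamini-Hochberg at 0.05; fold changes on this scale understate those of weak peaks. The fit was tested on simulated data. Single values used two-sided exact permutation tests. Alternatives were the pseudocount (0.01 and 0.5), the threshold (none and 1 RPKM), centring, quantile normalization, a replicate block, limma without trend and robust options, leaving out each library, and other definitions of member peaks.

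The members and lists were chosen with earlier results of these data known. Peaks were named where they had the highest level, the largest fall or the smallest fall of their family, an OCT4 mark, one of the 8 largest absolute changes among uncalled peaks, or belonged to 15 textbook genes. The set of promoters at or above the members' lower quartile, the shares over other genes, the family contrast and the alternative without shared peaks were chosen after the data were seen. The labels and the methods give different catalogue numbers for the antibody. The tables held 0 columns that could not be matched to a sample or group.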

Additional observations from a re-analysis of the deposited data

How the results depend on the processing

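The median change of the member peaks kept its sign under changes of pseudocount, threshold, limma options, replicate block and peak definition, and, leaving out 1 library at a time, ran from -0.59 to -0.41 with 26 to 80 peaks called lower. Without uninduced replicate 2 the count was 37 (44.0%, against 46.5% of all tested peaks) and without IAA replicate 2 it was 48 (57.1%, against 57.8%). In these fits 2 libraries remained in the reduced group, which shared its estimate of spread with the other. The member median minus the median of all tested peaks ran from 0.036 to 0.084 over these fits, and 0 member peaks were called higher in each. Of all tested peaks, 8 to 22 were called higher. The replicate numbers did not pair the samples (correlations of same-numbered deviations -0.014, -0.091 and -0.061). The fit with the replicate block called 79 member peaks lower (94.0%, against 71.4% of all tested peaks). Without peaks shared with another gene, 32 of 37 were called, a smaller count by construction. Of the 36 peaks named by rule, 15 lost their call without uninduced replicate 1, 14 without uninduced replicate 2 and 7 without IAA replicate 2. No threshold gave 64 (76.19%, against 49.85% of all peaks). Limma without trend and robust options gave 58 (69.05%, against 65.98% of all tested peaks). Under that last option the members' share lay close to that of all tested peaks.

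Both alternatives that remove a change common to all peaks turned the median above 0, to 0.062 with centring and 0.048 with quantile normalization, and left 0 member peaks called lower; the median of all tested peaks moved from -0.55 to 0.0051 and 0.018. Relative to that median peak, these log2 changes were above 0 with centring: Sf3a1 0.016, U2af1 0.027, Srsf3 0.066, U2af1l4 0.070, U2af2 0.074, Srsf1 0.081, Hnrnpa1 0.096, Hnrnpu (over the 5′ end) 0.096, Prpf38b (main promoter) 0.10, Sf3b1 0.10, Hnrnpa2b1 0.14, Hnrnpd (upstream) 0.14, Sf3a2 0.14, Hnrnpll 0.15, Hnrnpf (first start) 0.16, Srsf11 0.16, Srsf2 (over the 5′ end) 0.16, Hnrnpk 0.18 and 0.22, Srsf10 (intronic) 0.19, Prpf6 0.19, Snrpd3 (downstream) 0.19, Srsf5 0.24, Prpf38b (internal start) 0.25 and Hnrnpl 0.36. With quantile normalization they were Srsf3 0.031, Hnrnpa2b1 0.046, Sf3a1 0.050, U2af1 0.063, Hnrnpa1 0.070, Sf3a2 0.075, Prpf38b (main promoter) 0.077, Sf3b1 0.081, U2af1l4 0.086, U2af2 0.10, Srsf2 0.12, Hnrnpf 0.16, Hnrnpll 0.16, Hnrnpk 0.17 at both peaks, Srsf5 0.17, Srsf11 0.17, Hnrnpd 0.18, Srsf10 0.19, Prpf6 0.22, Snrpd3 0.22, Prpf38b (internal start) 0.25 and Hnrnpl 0.36. Leaving out 1 library at a time, Hnrnpl ran from -0.54 without IAA replicate 3, where it was called lower, to 0.053 without IAA replicate 2. Depth limits the weakest peaks: the Srsf9 downstream peak rests on 9 to 28 reads per library.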
